A study of Rattus norvegicus with 4 samples.

Results

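The left ventricle of the double transgenic rat (dTGR) was compared with that of the Sprague Dawley control rat (SD control), by the total RNA hybridised to 1 oligonucleotide array for each group. This comparison takes 2 of the 4 arrays of the study, namely the one titled dTGR and the one titled as the Sprague Dawley control. Members were chosen by these titles and not by any measured value, and they comprise all 8740 probe sets that are not hybridisation controls, of which 7006 carry a single gene symbol and stand for 4736 genes. The dTGR rats carry human renin and human angiotensinogen genes, which they overexpress, and develop hypertension, an enlarged heart and protein in the urine. All 4 samples, SD control included, share that description, which adds that the rats die after 7 weeks. The other 2 arrays hold losartan-treated dTGR and terminal heart failure. They enter only the common scale, the floor and the values in the closing part. The sources used here do not give the age at sampling, the promoters that drive the transgenes, how many animals stand behind an array or whether RNA was pooled. With 1 array per group there is no spread between animals, so each difference is a size without a test and its precision is limited by the number of arrays.

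Renin cleaves angiotensinogen to angiotensin I, which angiotensin converting enzyme turns into angiotensin II. Angiotensin II constricts vessels, raises aldosterone and acts on cardiomyocytes, fibroblasts and vascular cells through its type 1 receptor. Pressure overload and angiotensin II are known to enlarge cardiomyocytes, to bring back genes of the fetal heart such as those of the natriuretic peptides and skeletal alpha-actin, to draw in macrophages and to stimulate matrix turnover. The failing heart is known to use less fatty acid as fuel. In bulk tissue, fewer cells of a type and less RNA per cell cannot be told apart.

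The promoters of 4 genes are shown because these genes read higher on the dTGR array, Nppb by less than 2-fold. These promoters belong to genes of the natriuretic, fetal and acute phase programs described below. Each runs from 250 bases before to 50 bases after the start of the gene, 5′ to 3′ on the strand of the gene, as given by RefSeq for the rat build GRCr8. Nppa lies at chr5:163711934-163712233 and Nppb at chr5:163699758-163700057, both on the plus strand. Acta1 lies at chr19:68784145-68784444 on the minus strand, and Reg3b at chr4:112419526-112419825 on the plus strand. Capitals mark the motifs that were searched on both strands and found, and no match overlapped another.
Nppa: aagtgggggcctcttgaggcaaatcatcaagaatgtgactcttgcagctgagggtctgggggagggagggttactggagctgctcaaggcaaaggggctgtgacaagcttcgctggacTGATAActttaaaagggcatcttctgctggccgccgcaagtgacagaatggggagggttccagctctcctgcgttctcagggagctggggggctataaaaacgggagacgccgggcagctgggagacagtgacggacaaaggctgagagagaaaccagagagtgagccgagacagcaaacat
Nppb: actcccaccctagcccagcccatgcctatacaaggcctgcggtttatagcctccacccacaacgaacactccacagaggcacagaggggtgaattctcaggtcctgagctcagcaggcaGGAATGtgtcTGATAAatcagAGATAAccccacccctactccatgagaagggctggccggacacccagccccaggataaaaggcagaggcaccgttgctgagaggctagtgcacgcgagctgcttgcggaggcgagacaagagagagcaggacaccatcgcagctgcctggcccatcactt
Acta1: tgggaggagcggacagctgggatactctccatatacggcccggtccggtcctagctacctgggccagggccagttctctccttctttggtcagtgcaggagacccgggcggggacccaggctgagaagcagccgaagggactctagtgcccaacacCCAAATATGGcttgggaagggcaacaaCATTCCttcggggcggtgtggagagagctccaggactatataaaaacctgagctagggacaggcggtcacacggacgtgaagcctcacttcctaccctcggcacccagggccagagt
Reg3b: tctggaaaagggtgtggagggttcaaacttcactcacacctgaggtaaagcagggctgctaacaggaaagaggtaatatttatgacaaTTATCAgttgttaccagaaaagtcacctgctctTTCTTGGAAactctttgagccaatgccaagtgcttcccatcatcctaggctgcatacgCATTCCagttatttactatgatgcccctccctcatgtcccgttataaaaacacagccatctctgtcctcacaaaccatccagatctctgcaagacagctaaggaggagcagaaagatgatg
The Nppa promoter holds the GATA letters TGATAA. The Nppb promoter holds TGATAA and also AGATAA, another form of the GATA letters. It further holds the reverse complement of CATTCC, the M-CAT letters. The Acta1 promoter holds CATTCC and a CArG box, the motif bound by serum response factor. The Reg3b promoter holds CATTCC, the reverse complement of TGATAA and a match to the STAT letters TTCNNNGAA. Among 33469 rat promoters of the same length, TGATAA occurs in 9.03%, AGATAA in 11.6%, CATTCC in 14.2%, TTCNNNGAA in 8.87% and a CArG box in 1.64%. The AP-1 letters TGANTCA, found in 7.33% of promoters, have no match in these 4 windows. Such a match describes the letters and is neither a bound site nor a cause.

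Both arrays came from the same chip lot and were scanned on the same day, but they were washed and stained differently. The dTGR array was run with the fluidics protocol FlexGE-WS2, with 0 cycles in the first wash steps and a first stain of 0 s. The SD control array was run with EukGE-WS2, with 10 and 4 cycles and 600 s. The 100 brightest probe sets held 46.6% of the total signal on the dTGR array and 32.9% on the SD control array. The highest deposited value was 49747 on the dTGR array and 22575 on the SD control array, while the means left after trimming the outer 2% of values were 199.6 and 199.2. Ratios of 3′ to 5′ signal, a sign of RNA length, were 1.73 in dTGR and 1.34 in SD control for Gapdh, and 2.07 in dTGR and 1.46 in SD control for actin. Fluidics protocol and genotype cannot be told apart here, and the part of these values in the differences below was not tested. Over all 8740 probe sets the Spearman correlation between both arrays was 0.880, as a description.

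Where several probe sets measured a gene, the brightest by its mean over both arrays stood for it. Other probe sets that lay under the floor on both arrays are not given, as for Plcb3, Pde4c, Myh11 and Fga. Intensities under 26.0, the 40th percentile of all values pooled, were set to that floor before log2 was taken, and a gene counted as measured when it lay above the floor on at least 1 array. Of 3634 measured genes, dTGR had 287 (7.9%) that were higher by 2-fold or more and 209 (5.75%) that were lower by as much, and the median log2 difference was 0.04. Both arrays lay above the floor for 2890 genes, with 149 (5.16%) higher and 134 (4.64%) lower. The counts of each list below are to be read against these shares. Counted by probe set, 532 of 6120 (8.69%) were higher and 377 (6.16%) lower. For 138 of the higher and 75 of the lower genes 1 array lay under the floor, so the fold is a lower bound, written here as "at least". Higher genes made up 57.9% of the genes called. That share was 48.7% after quantile normalization of both arrays, 39.4% after cyclic loess, 42.6% with the floor at the 60th percentile and 31.0% after scaling to the same median, which moved the median of all genes to -0.19. Differences are therefore to be read against the median of all genes, and values after quantile normalization are given beside those of bright genes.

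**Figure D1:**
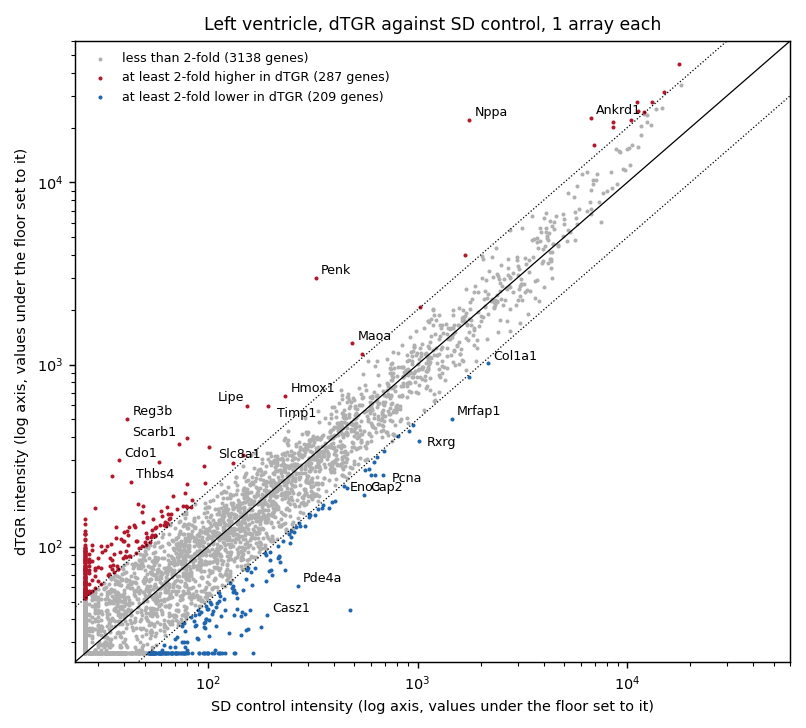
Intensity of each measured gene on the dTGR array (vertical, log axis) against the SD control array (horizontal, log axis), 1 point a gene, with values under the floor of 26.0 set to it. The solid line marks equal values and the dotted lines 2-fold, with 287 genes on or above the upper line and 209 on or below the lower one.

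The differences were not spread evenly over signal levels. Among 1629 genes whose brighter array read under 100, 187 were higher and 101 lower, with a median log2 difference of 0.16. From 200 to 500 the order was the other way, with 12 higher and 32 lower among 628 genes. Of the 80 genes at 5000 or more, 12 were higher and 0 lower. Their median was 0.55 on the trimmed mean scale, so the brightest genes were shifted as a body on that scale. After quantile normalization their median was -0.01. That method gives both arrays the same distribution, so a small median for the brightest genes follows from the method. Genes read at 100 or more on the brighter array numbered 100 higher and 108 lower, and these carry most of the account below.

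**Figure D2:**
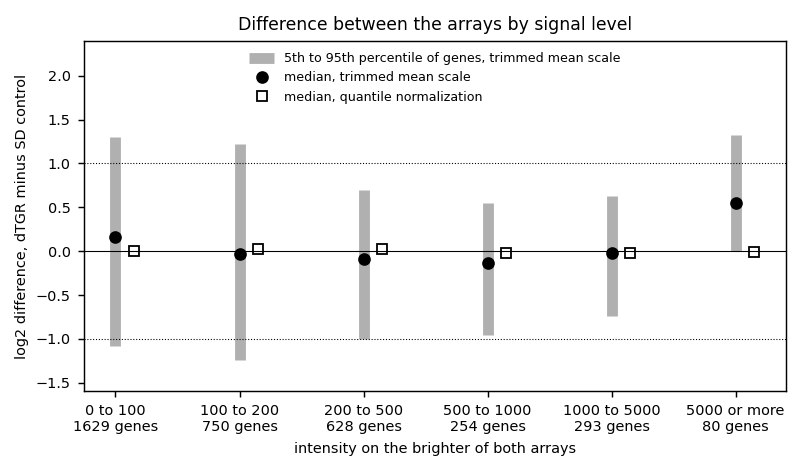
Log2 difference, dTGR minus SD control (vertical), by the intensity on the brighter array (horizontal). Grey bars span the 5th to the 95th percentile of the genes, filled points are medians on the trimmed mean scale and open squares medians after quantile normalization, which lie at 0.55 and -0.01 for the brightest genes.

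Natriuretic peptide genes and stress genes of the cardiomyocyte were higher in dTGR, Nppa by the most. Nppa encodes atrial natriuretic peptide, which the ventricle makes before birth and again under load. It read 22010.5 in dTGR, against 1759.8 in SD control, a 12.5-fold difference, and its 4 probe sets differed by 3.64 to 4.21 on the log2 scale. All 4 lay far above 2-fold, and quantile normalization left a log2 difference of 3.23. Nppb, the gene of brain natriuretic peptide, read 3801 in dTGR, against 2051 in SD control (1.85-fold higher). Ankrd1, a titin-associated repressor protein induced by stretch, read 22672 in dTGR, against 6691 in SD control (3.39-fold higher, log2 1.15 after quantile normalization). Acta1, the skeletal alpha-actin of the fetal heart, read 16079.8 in dTGR, against 6959 in SD control (2.31-fold, log2 0.61 after quantile normalization). Csrp3, a mechanosensor of the Z disc, was 1.83-fold higher, and Tpm2, beta-tropomyosin, 2.56-fold higher at the lower readings of 164 in dTGR, against 64.2 in SD control. Of 12 measured hypertrophy and fetal program genes 4 were higher and 0 lower, with a median of 0.88, against 0.04 over all genes, and of 0.44 after quantile normalization. Not every fetal gene was among them, as Acta2, the smooth muscle actin, read 691 in dTGR, against 1197 in SD control (1.73-fold lower), with other probe sets at -0.33 and 0.39.

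Sarcomere genes were the brightest of all, and their differences depended on the scale. Actc1, cardiac alpha-actin, read 44870.1 in dTGR, against 17602 in SD control, a log2 difference of 1.35 that became 0.00 after quantile normalization. Tnnt2, cardiac troponin T, read 24534 in dTGR, against 11291 in SD control (log2 1.12, and 0.15 after quantile normalization). Tpm1, alpha-tropomyosin, had a log2 difference of 1.06, which turned to -0.0665 after quantile normalization. The brightest probe sets of the myosin heavy chain genes shared a direction, while their other probe sets ran from -1.75 to 2.08. Myh7, the slow beta chain that the rat heart makes in fetal life and under load, read 23569 in dTGR, against 12389.8 in SD control (log2 0.93, and -0.07 after quantile normalization), with its second probe set at 2.08. Myh6, the fast alpha chain, read 16009.6 in dTGR, against 10500.4 in SD control (log2 0.61, and -0.25), while its other probe sets gave 0.02 and -1.75. Probe sets of these near-identical genes can share sequence, so the split between them is uncertain. The light chain gene Myl2 and the calcium pump gene Atp2a2 had log2 differences of 0.92 and 0.81 that became -0.37 and -0.25. The dimmer probe sets of Atp2a2 gave -0.60 to 0.29. The list of 24 measured genes of adult contraction and calcium handling had 4 higher and 1 lower, and its median of 0.19 turned to -0.09 after quantile normalization.

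Calcium entry and extrusion genes of moderate signal kept their direction after quantile normalization. Slc8a1, the sodium-calcium exchanger that removes calcium from the cardiomyocyte, read 351 in dTGR, against 101 in SD control, 3.46-fold higher. Its other probe set above the floor on both arrays gave 1.85, beside 1.79 for the representing one, on the log2 scale, and those above it on 1 array gave -0.68 and 0.78. Cacna1c, the pore of the L-type calcium channel, read 243 in dTGR, against 444 in SD control (1.83-fold lower), with another probe set, above the floor on 1 array, at 0.30. Its beta subunit Cacnb2 lay under the floor in dTGR and read 95.3 in SD control (at least 3.67-fold lower), but its other probe set, above the floor on both arrays, gave 0.57. The direction for Cacnb2 thus differs between its probe sets. Among potassium channels, Kcnj8, the pore of the vascular and cardiac ATP-sensitive channel, read 84.7 in dTGR, against 197 in SD control (2.33-fold lower), and Kcnd2, a pore of the transient outward current, was under the floor in dTGR and 62.7 in SD control (at least 2.41-fold lower). Kcna1 was the single gene of its list that was higher, at 78.3 in dTGR and under the floor in SD control (at least 3.01-fold). Gja1, the main gap junction protein of the ventricle, read 174 in dTGR, against 278 in SD control (1.60-fold lower). Over 16 measured channel and gap junction genes 1 was higher and 2 lower, and the median of 0.02 turned to -0.17 under scaling to the same median.

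Small heat shock genes of the cardiomyocyte were bright, and higher in dTGR by an amount that the scale set. Hspb6, a small heat shock protein of muscle, read 20079 in dTGR, against 8576 in SD control (2.34-fold, log2 0.46 after quantile normalization), and its probe sets gave 1.23 and 1.35. Cryab, the chaperone of desmin, read 21908 in dTGR, against 10431 in SD control (log2 1.07, and 0.17 after quantile normalization). Pdlim5, a Z disc adaptor, had 101 in dTGR, against 48.3 in SD control, with probe sets from 1.06 to 1.56. By contrast a pair of mitochondrial chaperones read lower, with Hspa9 at 467 in dTGR, against 947 in SD control (2.03-fold) and Hspe1 at 939 in dTGR, against 1698 in SD control (1.81-fold). Other probe sets gave -0.70 and 0.53 for Hspa9 and -0.10 for Hspe1. Of 31 measured genes of heat shock and of stress in the endoplasmic reticulum 2 were higher and 2 lower, with a median of -0.10. Actb, beta-actin, read 5595 in dTGR, against 3146 in SD control (1.78-fold higher, log2 0.62 after quantile normalization).

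**Figure D3:**
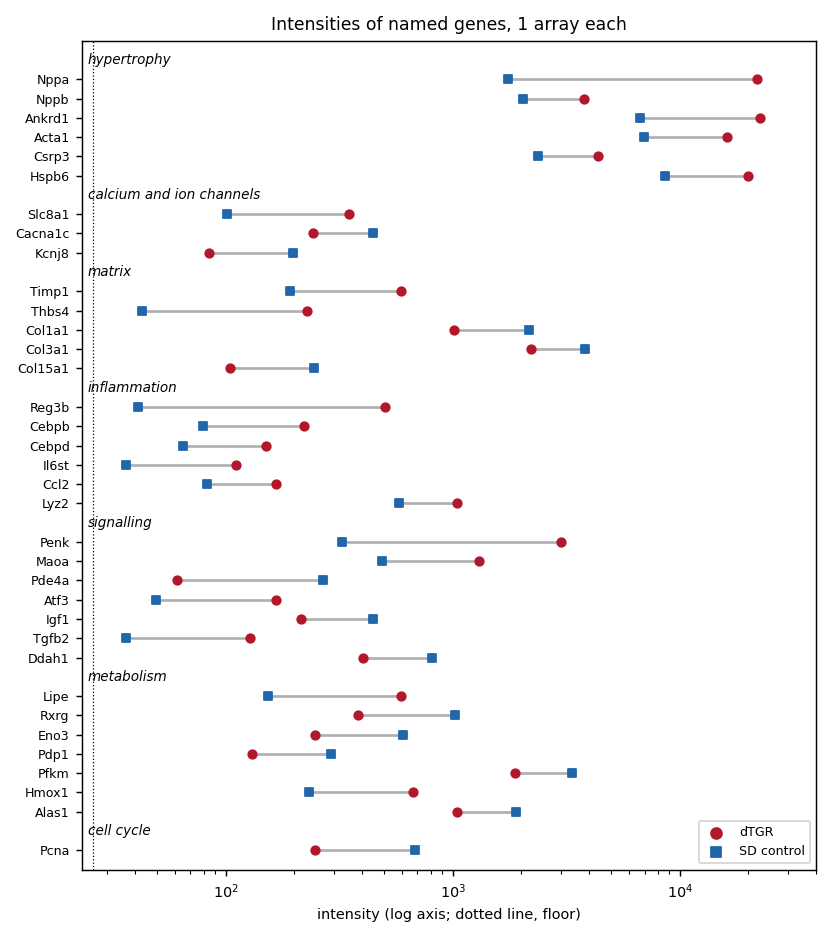
Intensity (horizontal, log axis) of 35 named genes on the dTGR array (circles) and the SD control array (squares), 1 array each, grouped by function. Nppa, Reg3b and Penk show the widest gaps, while collagens, Rxrg, Pcna and Eno3 lie lower in dTGR.

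Most measured collagens were lower in dTGR, while an inhibitor of matrix proteases and a thrombospondin were higher. Col1a1, the main chain of type I collagen, read 1015 in dTGR, against 2164 in SD control (2.13-fold lower), and its 3 other probe sets gave log2 differences from -0.75 to -0.29. Col3a1 read 2224 in dTGR, against 3814 in SD control (1.71-fold lower), Col15a1, a basement membrane collagen, 104 in dTGR, against 246 in SD control (2.35-fold lower), and Col5a2 178 in dTGR, against 335 in SD control (1.89-fold lower). Col1a2, the partner chain of Col1a1, read 1021 in dTGR, against 1095 in SD control (1.07-fold lower). Of 9 measured collagens 7 had a negative difference and 2 were at least 2-fold lower, with a median of -0.63 and of -0.50 after quantile normalization. The 2 higher ones were dim: Col8a1 read 85.9 in dTGR, against 27.1 in SD control, and Col9a1 read 102 in dTGR and lay under the floor in SD control.

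Timp1, an inhibitor of matrix metalloproteinases, read 594 in dTGR, against 193 in SD control, 3.09-fold higher, and its second probe set gave a log2 difference of 2.45. Thbs4, a thrombospondin induced in loaded myocardium, read 227 in dTGR, against 43.0 in SD control (5.29-fold higher). Spp1, osteopontin, read 85.9 in dTGR and lay under the floor in SD control (at least 3.31-fold), as did Postn, periostin, at 62.5 in dTGR (at least 2.41-fold). Among brighter glycoproteins Bgn, biglycan, read 1416 in dTGR, against 919.8 in SD control (1.54-fold higher), and Sparc read 10289 in dTGR, against 6885 in SD control (log2 0.58, and 0.05 after quantile normalization). The 3 other probe sets of Sparc were lower in dTGR, at -0.40 to -0.17, so its direction differs between probe sets. Plod1, which hydroxylates collagen lysines, read 122 in dTGR, against 249 in SD control (2.05-fold lower). Plau, the urokinase gene, was 2.44-fold higher at 85.0 in dTGR, against 34.8 in SD control, whereas Plat, tissue plasminogen activator, was 1.90-fold lower at 87.7 in dTGR, against 167 in SD control. Of 30 glycoproteins and proteoglycans 4 were higher and 1 lower (median 0.06, and -0.17 after scaling to the same median), and of 17 proteases and inhibitors 4 were higher and 0 lower (median -0.09, and 0.03 after quantile normalization).

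In the transforming growth factor beta family the isoforms differed in direction. Tgfb2 read 129 in dTGR, against 36.5 in SD control (3.52-fold higher), and Tgfb1, the main isoform of fibrosis, 42.1 in dTGR, against 77.4 in SD control (1.84-fold lower). Acvrl1, an endothelial receptor of the family, read 46.6 in dTGR, against 109 in SD control (2.34-fold lower), and Gdf10, a bone morphogenetic protein, read 89.1 in dTGR and lay under the floor in SD control (at least 3.43-fold higher). Of 18 measured members 3 were higher and 1 lower, and the median was 0.36. None of 19 integrin and adhesion genes reached 2-fold in either direction.

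Several genes of the acute phase and of interleukin 6 signalling were higher in dTGR. Reg3b, a lectin that cardiomyocytes secrete under cytokines of the oncostatin M type and that attracts macrophages, read 502 in dTGR, against 41.2 in SD control, a 12.2-fold difference that quantile normalization left at 3.55 on the log2 scale. A single probe set stands for it. Il6st, the receptor subunit shared by the interleukin 6 family, read 111 in dTGR, against 36.5 in SD control (3.05-fold higher), and the ligand Lif, leukemia inhibitory factor, 108 in dTGR, against 45.9 in SD control (2.34-fold higher). Their downstream transcription factors followed the same direction. Cebpb read 221 in dTGR, against 79.6 in SD control (2.77-fold) and Cebpd 151 in dTGR, against 64.9 in SD control (2.32-fold), with other probe sets of Cebpd at 0.33 and 1.51. Il6r, the binding subunit for interleukin 6 itself, read 37.0 in dTGR, against 72.5 in SD control (1.96-fold lower). Of 21 measured genes of the interleukin 6 family and Jak-Stat signalling 6 were higher and 0 lower, with a median of 0.53 (0.44 after quantile normalization), and of 24 acute phase genes 5 were higher and 0 lower, with a median of 0.46 (0.42). Among the acute phase genes Fga, a fibrinogen chain, read 73.0 in dTGR and lay under the floor in SD control.

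Some chemokine and receptor genes were higher, at low signal. Ccl2, the chemokine that recruits monocytes, read 166 in dTGR, against 83.0 in SD control (2.0-fold), and both of its probe sets were past 2-fold. Ccr1, a receptor of that family, read 83.5 in dTGR, against 26.1 in SD control (3.20-fold), and Ptafr, the receptor of platelet activating factor, 91.0 in dTGR, against 27.1 in SD control (3.36-fold). Csf1, the growth factor of macrophages, read 43.8 in dTGR, against 93.2 in SD control (2.13-fold lower). Of 28 measured genes 6 were higher and 1 lower, and the median was 0.47. In the NF-kappaB list of 16 genes 1 was higher and 0 lower, and its median of 0.16 turned to -0.07 under scaling to the same median. Nfkbia, the inhibitor that NF-kappaB induces, read 328 in dTGR, against 198 in SD control (1.65-fold higher).

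Antigen presentation and interferon genes did not share that direction. Psme2, a subunit of the proteasome activator of antigen processing, read 129 in dTGR, against 262 in SD control (2.04-fold lower), and the class I gene RT1-M3-1 read 101 in dTGR, against 216 in SD control (2.14-fold lower). Irf1 and Irf7, transcription factors of the interferon response, were 1.69-fold and 1.59-fold lower, with another probe set of Irf7 at 0.01. Of 21 antigen presentation genes 0 were higher and 3 lower, with a median of 0.08 that turned to -0.15 under scaling to the same median. Differences were positive for 12 of these genes and negative for 9. None of 13 interferon-induced genes reached 2-fold, and their median of 0.06 turned to -0.17 after quantile normalization. Of these 13, 8 had a positive and 5 a negative difference, so the lower genes named here do not stand for their lists.

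The rat genes of the renin-angiotensin system itself were dim. Agt, angiotensinogen, read 37.7 in dTGR, against 39.1 in SD control and thus differed by 1.04-fold, and the human transgenes are not analysed here. Ace, angiotensin converting enzyme, read 128 in dTGR, against 86.1 in SD control (1.48-fold higher). The type 1 receptor genes differed in direction at the edge of detection: Agtr1b read 53.0 in dTGR, against 26.1 in SD control and Agtr1a lay under the floor in dTGR and read 45.0 in SD control. These are near-identical paralogs, so the split is uncertain. Anpep, an aminopeptidase that degrades angiotensin III, read 73.5 in dTGR, against 195 in SD control (2.65-fold lower), but its other probe sets gave 0.60 and 0.97. Nr3c1, the glucocorticoid receptor, read 74.9 in dTGR, against 153 in SD control (2.05-fold lower), with another probe set at 0.69. Of 14 measured members 1 was higher and 2 lower, with a median of -0.28.

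Other vasoactive genes were mixed. Adm, adrenomedullin, a vasodilator peptide, read 107 in dTGR, against 53.2 in SD control (2.0-fold higher). Npr3, the clearance receptor of natriuretic peptides, read 59.2 in dTGR, against 26.1 in SD control (2.27-fold higher). Ddah1, which degrades an inhibitor of nitric oxide synthase, read 404 in dTGR, against 808 in SD control (2.0-fold lower), and its 2 probe sets gave -1.01 and -1.0. Among 21 such genes 4 were higher and 1 lower, and the median of 0.16 turned to -0.08 under scaling to the same median.

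Penk, the precursor of the enkephalin opioid peptides, which cardiac muscle is known to make, read 2999 in dTGR, against 327 in SD control, a 9.17-fold difference. It rests on 1 probe set, and quantile normalization left it at 3.21 on the log2 scale. Pam, the enzyme that amidates peptide hormones, read 8705 in dTGR, against 5215 in SD control (1.67-fold higher, log2 0.38 after quantile normalization). Pomc read 84.9 in dTGR and lay under the floor in SD control. Of 17 measured peptide precursors 3 were higher and 0 lower, with a median of 0.11.

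Enzymes that end catecholamine and cyclic AMP signals had no common direction. Maoa, which oxidises noradrenaline and serotonin, read 1309 in dTGR, against 489 in SD control (2.68-fold higher), and its second probe set gave a log2 difference of 0.67. Its paralog Maob lay under the floor in dTGR and read 67.1 in SD control (at least 2.58-fold lower). Of the phosphodiesterases that break down cyclic AMP, 3 members of the PDE4 family read lower, with Pde4a at 60.9 in dTGR, against 268 in SD control (4.40-fold), Pde4c at 33.8 in dTGR, against 126 in SD control (3.74-fold) and Pde4b at 107 in dTGR, against 204 in SD control (1.91-fold). Other probe sets gave smaller values, at -0.38 for Pde4a and at -0.01 and 0.08 for Pde4b. Adrb1, the main beta-adrenergic receptor of the heart, read 116 in dTGR, against 55.9 in SD control (2.08-fold higher). Over 41 measured adrenergic and G protein genes 4 (9.76%) were higher and 3 (7.32%) lower, near the shares of 7.9% and 5.75% over all genes, with a median of -0.06.

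Growth signalling showed no common direction. Atf3, a transcription factor induced by stress, read 167 in dTGR, against 49.2 in SD control (3.40-fold higher). Dusp6, a phosphatase of ERK, read 117 in dTGR and lay under the floor in SD control (at least 4.51-fold higher). Its second probe set, above the floor on both arrays, gave a smaller log2 difference of 1.11. Id2, an inhibitor of basic helix-loop-helix factors, read 43.7 in dTGR, against 146 in SD control (3.35-fold lower). Igf1, insulin-like growth factor 1, read 215 in dTGR, against 444 in SD control (2.07-fold lower), while 3 further probe sets gave -1.54 to 0.33. Sos1, which activates Ras, was 2.07-fold lower, with another probe set at -0.37. Mtor, the growth kinase, was 2.15-fold lower, at 107 in dTGR, against 229.6 in SD control. Plcb3, a phospholipase below Gq-coupled receptors, read 121 in dTGR, against 41.1 in SD control (2.95-fold higher). Nrg1, a ligand that protects cardiomyocytes, read 87.2 in dTGR, against 39.4 in SD control, and the 2 of its probe sets above the floor on both arrays gave 1.11 and 1.15. Of 30 immediate early genes 3 were higher, against 1 lower (median 0.21), of 21 MAP kinase genes 3 and 1 (-0.11), of 27 genes of other hypertrophic kinases 1 and 2 (-0.08), and of 42 growth factors and receptors 2 and 1 (0.13, turning to -0.20 under scaling).

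**Figure D4:**
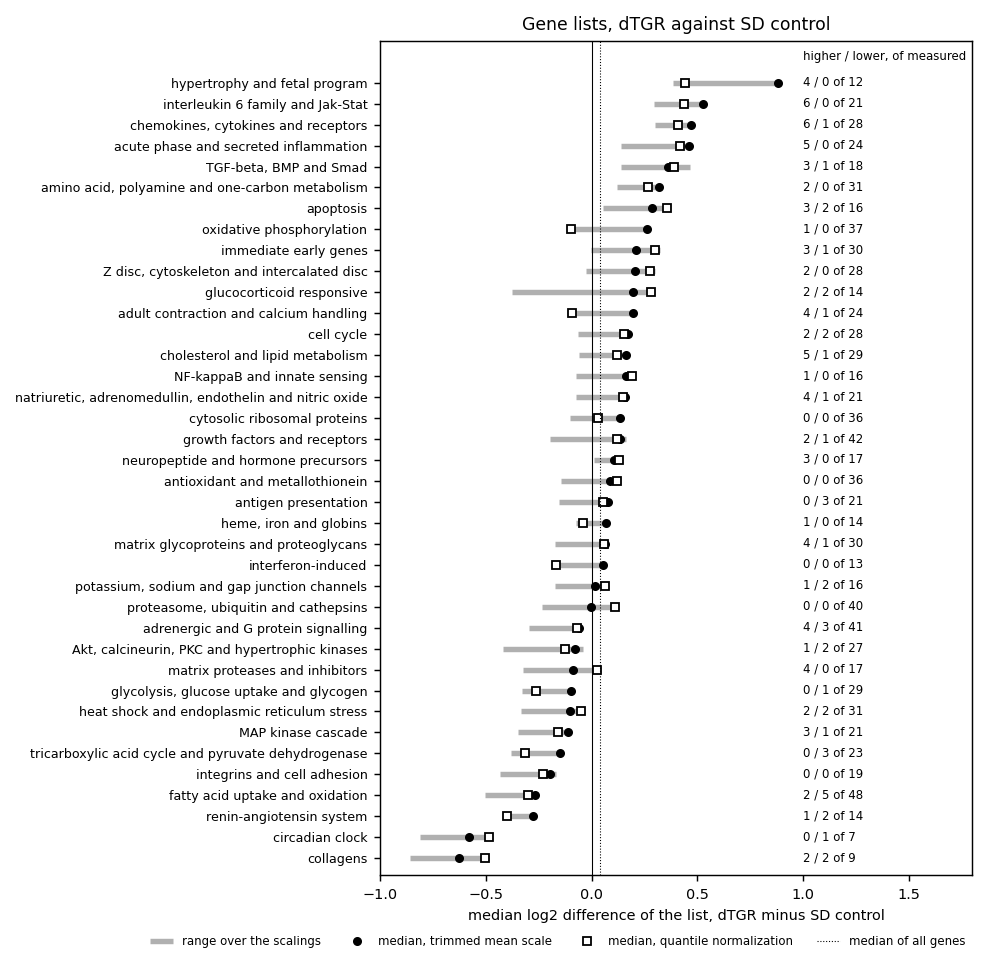
Median log2 difference, dTGR minus SD control (horizontal), of 38 gene lists: filled points on the trimmed mean scale, open squares after quantile normalization, grey bars the range over the scalings and the dotted line the median of all genes (0.04). Numbers at the right count genes at least 2-fold higher and lower among those measured, and the hypertrophy list (0.88) and the collagens (-0.63) lie at the ends.

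Fatty acid genes were lower as a body, by small amounts. Of 48 measured genes of fatty acid uptake and oxidation 38 had a negative difference, 2 were at least 2-fold higher and 5 lower, and the median was -0.27 and -0.30 after quantile normalization. Eci1, an isomerase of unsaturated fatty acid oxidation, read 1525 in dTGR, against 2767 in SD control (1.81-fold lower), and Acadm, the medium-chain dehydrogenase, 1503 in dTGR, against 2419 in SD control (1.61-fold lower). Etfdh, which feeds their electrons to ubiquinone, read 337 in dTGR, against 689 in SD control (2.04-fold lower), with other probe sets at -0.09 and -2.85. Rxrg, a nuclear receptor that pairs with the fatty acid sensors of the PPAR family, read 381 in dTGR, against 1019.7 in SD control (2.67-fold lower), and its other probe sets gave -0.28 and -2.03. Lipe, hormone-sensitive lipase, stood against that direction at 589 in dTGR, against 153 in SD control (3.84-fold higher), although its second probe set gave -0.24.

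Eno3, muscle enolase, read 247 in dTGR, against 603 in SD control (2.44-fold lower). Pfkm, muscle phosphofructokinase, read 1889 in dTGR, against 3366 in SD control (1.78-fold lower), and Slc2a4, the insulin-regulated glucose transporter, 723 in dTGR, against 1153 in SD control (1.59-fold lower). Another probe set of Pfkm gave -0.10, and another of Slc2a4 gave 0.47, the opposite direction. Of 29 glycolysis and glycogen genes 0 were higher and 1 lower, with a median of -0.10 and of -0.26 after quantile normalization. The phosphatases that switch on pyruvate dehydrogenase were lower, with Pdp1 at 130.3 in dTGR, against 291 in SD control (2.23-fold) and Pdp2 at 90.4 in dTGR, against 188 in SD control (2.08-fold, probe sets at -1.54 and -1.06). Glud1, glutamate dehydrogenase, read 432 in dTGR, against 916 in SD control (2.12-fold lower), with other probe sets at -0.55 and 0.51. In the list of 23 tricarboxylic acid cycle genes 0 were higher and 3 lower (median -0.15, and -0.32 after quantile normalization). Oxidative phosphorylation was bright and followed the scale, as 27 of 37 genes had a positive difference, with a median of 0.26 that turned to -0.10 after quantile normalization. Cox6a2, the muscle subunit of cytochrome oxidase, read 27669 in dTGR, against 13197 in SD control (log2 1.07, and 0.07 after quantile normalization).

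Some genes of amino acid and sterol metabolism had large differences. Cdo1, which starts the breakdown of cysteine to taurine, read 298 in dTGR, against 37.8 in SD control (7.87-fold higher), while its second probe set, above the floor on 1 array, gave 0.48. Scarb1, a receptor of high-density lipoprotein, read 368 in dTGR, against 72.6 in SD control (5.07-fold higher), yet its other probe sets gave 0.08 and -1.31. Dhcr7, the last enzyme of cholesterol synthesis, read 163 in dTGR, against 29.0 in SD control (5.62-fold higher), and its second probe set gave -0.57. Gpam, the first enzyme of triglyceride synthesis, read 137 in dTGR, against 49.3 in SD control (2.78-fold higher), with probe sets at 1.37 and 1.47. Of 31 amino acid and polyamine genes 2 were higher and 0 lower (median 0.32), and of 29 cholesterol and lipid genes 5 were higher and 1 lower (median 0.16, turning to -0.06 under scaling to the same median).

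Heme genes differed in opposite directions. Hmox1, heme oxygenase 1, which degrades heme, read 672 in dTGR, against 233 in SD control (2.88-fold higher), and its 2 probe sets gave 1.53 and 1.55. Alas1, which starts heme synthesis, read 1049 in dTGR, against 1898 in SD control (1.81-fold lower). Among antioxidants Gpx3, a secreted glutathione peroxidase, read 5476 in dTGR, against 2748 in SD control (1.99-fold higher), with its second probe set at 0.24. None of 36 antioxidant and metallothionein genes reached 2-fold, and their median of 0.09 turned to -0.15 under scaling to the same median.

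Pcna, the sliding clamp of DNA replication, read 247 in dTGR, against 685 in SD control (2.77-fold lower), and both probe sets were past 2-fold. The mitotic genes Foxm1 and Ccnb1 were higher, at 172 in dTGR, against 46.6 in SD control (3.69-fold) and at 167 in dTGR, against 78.4 in SD control (2.13-fold). Of 28 cell cycle genes 2 were higher and 2 lower, with a median of 0.17 that turned to -0.06 under scaling to the same median. Bcl2l1, an inhibitor of apoptosis, was 2.28-fold higher, and Casp2, an initiator caspase, read 34.7 in dTGR, against 153 in SD control (4.41-fold lower) with other probe sets at -0.58 and 1.45. Each of 7 measured clock genes had a negative difference, and Bmal1, the core activator, read 58.0 in dTGR, against 148 in SD control (2.54-fold lower, median of the list -0.58). The sources used here do not give the hours at which tissue was taken. Neither the 36 ribosomal protein genes nor the 40 proteasome, ubiquitin and cathepsin genes held a 2-fold difference.

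The 11 measured cardiomyocyte markers had summed intensities of 217176 in dTGR, against 114662 in SD control, with a median of 0.87 that turned to -0.10 after quantile normalization. Nppa is also an atrial gene, and of 7 atrial markers on the array 5 were measured, with 3 positive and 2 negative differences, 1 higher (Nppa itself) and a median of 0.06 that turned to -0.07 after quantile normalization. Myl7, the atrial light chain, read 87.9 in dTGR, against 144 in SD control (1.63-fold lower), and its second probe set gave 0.20, while Myl4 was under the floor on both arrays. Acta1 is also a gene of skeletal muscle, of whose 16 markers 9 were measured, with 5 positive, 4 negative and 2 higher, namely Acta1 and Myl1, a fast light chain, at 56.9 in dTGR, against 26.1 in SD control. The median was 0.11 and turned to -0.08 after quantile normalization. Myh4, Tnni2 and Tnnt3 were among the 7 markers under the floor on both arrays. Lipe is also a gene of fat cells, whose markers summed to 1912 in dTGR, against 1427 in SD control over 5 measured of 6, with Plin1 under the floor on both arrays.

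Macrophage markers summed to 3788 in dTGR and 3399.5 in SD control over 9 measured of 11, with a median of 0.43, and 0 reached 2-fold. Lyz2, lysozyme, read 1046 in dTGR, against 583 in SD control (1.79-fold higher), and Lgals3, galectin 3, 214 in dTGR, against 125 in SD control (1.72-fold higher). Cd74, the class II invariant chain, read 1454 in dTGR, against 1832 in SD control (1.26-fold lower, other probe sets at -2.07 to -0.15), and Csf1r and Itgam were under the floor on both arrays. T cell markers summed to 439 in dTGR and 626 in SD control over 9 measured of 10, with a median of -0.47. Lck, a kinase of T cells, read 87.5 in dTGR, against 217 in SD control (2.48-fold lower), and Cd2 was under the floor on both arrays. Of 10 mast cell markers 4 were measured, summing to 299 in dTGR and 416 in SD control, and Kit was under the floor on both arrays. Neutrophil markers were at 110.0 in dTGR and 41.2 in SD control over 3 measured of 4, none above the floor on both arrays.

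Fibroblast markers summed to 20535 in dTGR and 21322 in SD control, with 8 of 11 negative and a median of -0.44. Pdgfra, a receptor of fibroblasts, read 188 in dTGR, against 311 in SD control (1.66-fold lower), but its dimmer probe sets, above the floor on 1 array, gave 0.47 and 0.88. Vim, vimentin, read 846 in dTGR, against 1152 in SD control (1.36-fold lower). The 7 endothelial markers had a median of 0.33, with Kdr, a receptor of vascular growth factor, at 191 in dTGR, against 111 in SD control (1.72-fold higher) and Pecam1 at 112 in dTGR, against 141 in SD control (1.25-fold lower). Smooth muscle and pericyte markers summed to 10019.6 in dTGR, against 7824 in SD control over 8 genes. Most of both sums came from Des, the desmin gene, at 8369 in dTGR, against 5579 in SD control. The sums therefore say little about the other markers. Differences were positive for 4 genes and negative for 4, with 2 lower and 0 higher and a median of -0.03. Myh11, smooth muscle myosin, read 55.6 in dTGR, against 136 in SD control (2.44-fold lower). Red blood cell markers were brighter in dTGR, with a sum of 27212 against 15609 in SD control over 4 genes. Their median was 0.49, and 0.30 after quantile normalization. The part of any of these cell types in the differences above was not tested.

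Probe sets of the same gene read the same RNA on the same 2 arrays. Their agreement describes the probe sets and does not measure repeatability between animals or arrays. Over 759 genes with several probe sets above the floor on both arrays, the standard deviation between them was 0.53 on the log2 scale. Of the 32 higher genes that had another such probe set, 27 had all others of the same sign, 5 had one of the opposite sign and 14 had all past 2-fold. For the 35 lower genes these numbers were 22, 13 and 5. All probe sets above the floor on both arrays were past 2-fold for 13 higher genes. These were Nppa, Timp1, Slc8a1, Hmox1, Hspb6, Ccl2, Akip1, Gpam, Bcl2l1, Nrg1, Pdlim5, Defb1 and the mitochondrially encoded COX1. COX1 read 24452 in dTGR, against 12018 in SD control, and its log2 difference of 1.02 became 0 after quantile normalization. That of Hspb6, also bright, became 0.46. The 4 lower genes were Pcna, Pdp2, Ddah1 and Ppp2r3a, a regulatory subunit of protein phosphatase 2A at 266 in dTGR, against 590.2 in SD control. Akip1, a protein that binds protein kinase A and is known to be induced in hypertrophy, read 393 in dTGR, against 79.6 in SD control (4.94-fold higher), with 3 probe sets from 1.06 to 2.37.

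**Figure D5:**
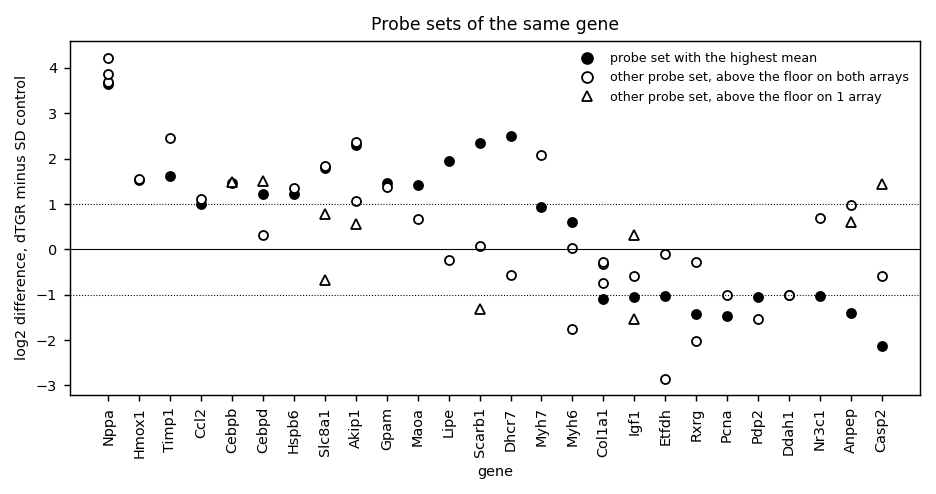
Log2 difference, dTGR minus SD control (vertical), of every probe set above the floor on at least 1 array for 26 genes (horizontal): filled points are the probe sets that represent the gene, open circles others above the floor on both arrays and triangles others above it on 1 array. Nppa, Hmox1, Timp1 and Ccl2 have all points past 2-fold (dotted lines). Points lie on both sides of 0 for Scarb1, Dhcr7, Lipe, Nr3c1, Anpep, Casp2, Slc8a1, Myh6 and Igf1.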

How the data were processed

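Total RNA of the rat left ventricle was hybridised to Affymetrix rat genome arrays. The authors deposited linear intensities, 1 for each probe set of an array, per the file headers and values. The sources used here do not name the software behind these intensities or its version. Low values, under 32, seem to have been turned into a day and a month (3133 on the dTGR and 3425 on the SD control array) and were read back as written. The 2 arrays compared were scaled, with the other 2, to the mean of the 4 trimmed means, floored at 26.0 and put on the log2 scale (Python 3.11.15, numpy 2.4.6, pandas 2.3.3). Cyclic loess used limma 3.58.1 in R 4.3.3. Of 8799 probe sets, 59 controls, 308 with several symbols and 1426 with none were left out of the gene counts. Counting and scaling were tested on simulated data, and list medians were not. No test was possible with 1 array per group, and no sample was dropped.

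Members and the 38 gene lists and 16 cell type lists were chosen with earlier results of these data known. The rule for named genes took up to 8 genes of each list with the largest difference, 25 genes in each direction over all genes, every gene whose probe sets were all past 2-fold, and a fixed set. It named 398 genes, of which the text gives part. Cacna1c, Col1a2, Bgn, Sparc and Acadm fall outside it and were chosen after their values were seen, as were the markers named as under the floor. The 14 other settings tried and 2 chosen after seeing the data (low values read as 1 decimal, and genes of 100 or more on the brighter array) are in the closing section.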

Additional observations from a re-analysis of the deposited data

How the results depend on the processing

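No paired analysis was possible because each group had 1 array, and for the same reason no array could be left out. The count of genes at least 2-fold higher in dTGR, 287 as reported, and of lower genes, 209 as reported, moved with the scale, the floor and the limits. With equal medians there were 167 higher and 371 lower, and cyclic loess gave 182 higher and 280 lower. The floor at the 25th percentile gave 600 higher and 368 lower, and that at the 60th percentile 58 higher and 78 lower. A 1.5-fold limit gave 686 higher and 573 lower, and a 3-fold limit 71 higher and 38 lower. Genes above the floor on both arrays gave 149 higher and 134 lower, and genes of 100 or more on the brighter array 100 higher and 108 lower. Under the remaining alternatives the counts stayed within 1.5 times, at 223 to 387 higher and 172 to 242 lower. Of 54 list medians, 20 changed sign under at least 1 scaling. Of 134 named genes 93 were past 2-fold, and 71 of these also after quantile normalization. Over all alternatives 1471 of 1572 values of named genes stayed within the 0.53 spread between probe sets. Alternatives that change the floor or the choice of probe set cannot move a bright gene with 1 probe set. That share is therefore no measure of stability. Among named genes past 2-fold, Tpm1 turned to -0.0665 under quantile normalization of both arrays and to -0.0724 under that of all 4. Anpep turned to 0.60 with the median of its probe sets and to 0.97 without family probe sets. Leaving out family probe sets also turned Nr3c1 to 0.69 and Scarb1 to -1.31. Dhcr7 turned to -0.57 with the probe set highest in SD control. These 4 last genes turned because another probe set then stood for them. Some genes short of 2-fold turned after quantile normalization, with Myh7 at -0.07, Myh6 at -0.25, Myl2 at -0.37, Atp2a2 at -0.25 and Col1a2 at 0.01. The other causes were not tested. Signals near the floor limit what dim genes can show.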

Other observations

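Among genes that no list held, some of the larger differences above the floor on both arrays, with no probe set of the opposite sign, were these. Trdmt1, which methylates transfer RNA, read 246 in dTGR, against 35.0 in SD control (7.02-fold higher). Pitx3, a transcription factor of the lens and of dopamine neurons, read 293 in dTGR, against 58.7 in SD control (4.99-fold higher). Abcb4, a phospholipid transporter, read 154 in dTGR, against 48.4 in SD control (3.18-fold higher). On the lower side, Mrfap1 read 502 in dTGR, against 1452 in SD control (2.89-fold), and Cap2, a protein of muscle that binds actin and whose loss in mice is known to dilate the heart, read 192 in dTGR, against 558 in SD control (2.91-fold). Casz1, a zinc finger factor of heart development, read 42.0 in dTGR, against 192 in SD control (4.58-fold lower). Gpt, alanine aminotransferase, read 74.3 in dTGR, against 234 in SD control (3.15-fold lower). Mrfap1 and Cap2 were the 2 of these lower genes that read over 500 in SD control.

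On the remaining arrays the leading genes had the following intensities, given as values with no comparison. Nppa read 5408 on the losartan-treated dTGR array and 11721 on the terminal heart failure array. Reg3b read 27.1 on the losartan-treated dTGR array and 3846 on the terminal heart failure array. Penk read 864 after losartan and 2063 in terminal heart failure, and Timp1 read 286 after losartan and 2414 in terminal heart failure.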
